A study of Mus musculus with 6 samples.

Results

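Female and male mouse blastocysts were compared for 10 genes linked to pluripotency: Dppa2, Dppa3 and Dppa4, the Nodal-pathway genes Tdgf1, Gdf3, Lefty1 and Lefty2, and Utf1, Fgf4 and Fbxo15. They were picked by gene symbol, at a time when earlier results of these data were known, and each is measured by 1 probe. All 10 are among the 8973 genes that the platform annotation names through probes with a single symbol, of 18606 rows tested in all.

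These genes are active in the inner cell mass, the cells of the blastocyst that form the embryo proper, and in embryonic stem cells derived from it. Dppa2 and Dppa4 encode DNA-binding chromatin proteins that act as partners, and Dppa3 a maternal factor that shields maternal DNA methylation in the zygote. Nodal is a secreted ligand of the TGF-beta family. It signals through activin receptors and the co-receptor encoded by Tdgf1, and its targets include Lefty1 and Lefty2, secreted antagonists that limit the signal. Fgf4 is the ligand by which inner cells signal to the neighbouring lineages. Utf1, Fgf4 and Fbxo15 are known targets of the transcription factors Oct4 and Sox2.

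RNA of whole embryos at embryonic day 3.5 (E3.5) was compared by sex on 2-colour Agilent arrays. Per the labels' protocols, the mothers of both sexes were B6C3F1 mice of 8 weeks given 5 IU of pregnant mare serum gonadotropin and 5 IU of human chorionic gonadotropin 48 h apart, and the fathers were XGFPY males. Embryos were taken at the 4-cell stage 55 h after the second hormone and kept in kSOM medium for 38 h, with no treatment. Each RNA was a pool of over 200 embryos of 1 sex, so variation between single embryos is not seen. Of the 3 independent preparations, each gave 1 array with female RNA in Cy5 and 1 with female RNA in Cy3, and these form 2 groups of 3 arrays. Values below are log2 ratios of female over male as labelled, and the value of a preparation is the mean of its 2 arrays.

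The sex labels were checked first. Xist, whose RNA covers the X chromosome to be silenced, read 2.25 and 2.09 in the first and second preparations and -1.55 in the preparation labelled 3. The Y-linked Eif2s3y stood at -1.75, -1.76 and 1.93 in the same order, while Kdm5d, also Y-linked, lay near 0 (0.026, -0.13 and 0.069). The preparation labelled 3 therefore goes against its labels on Xist and Eif2s3y, and a gene whose ratio tracks that of Xist would be positive in preparations 1 and 2 and negative in the preparation labelled 3. Any direction drawn from that preparation depends on its labels. Of the inner cell mass markers, Sox2, Nanog, Klf4, Fgf4, Gdf3 and Tdgf1 were measured and Pou5f1 was not analysed here. A ratio gives no level, so the presence of these transcripts could not be checked. In pooled whole embryos, a smaller number of inner cells and less RNA per cell cannot be told apart.

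No member passed the test for a sex difference with labels kept (limma over all rows, Benjamini-Hochberg adjusted p = 1 for each), and the background was 0% of 18606 rows. Xist and Eif2s3y did not pass it either, so the lack of a call does not show equal levels in the sexes. At an unadjusted p under 0.05 limma had 0 of the 10 members and 484 rows (2.6%). The sizes were small: no member exceeded 0.5 in any preparation. The signs were less even. In all, 8 of 10 members were positive in preparations 1 and 2 and negative in the preparation labelled 3, against 19.3% of all named genes, and 17.4% of named genes had the mirror pattern. Without the preparation labelled 3, the same 8 members were positive in both others, as were 29.2% of named genes. Of these, Lefty1 and Fgf4 were near 0 in preparation 2 (0.011 and 0.0060). On all 6 arrays, 2 of the 10 members followed Xist, against 3.24% of named genes. None of the 10 was positive in all 3 preparations (9.89% of named genes were). The median of the members was 0.15, 0.053 and -0.11 in preparations 1, 2 and 3, where that of all named genes was 0.0083, 0 and -0.0027. A wider list of pluripotency genes was known from earlier results of these data to show this pattern. The counts are therefore descriptions and no independent support for it.

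**Figure D1:**
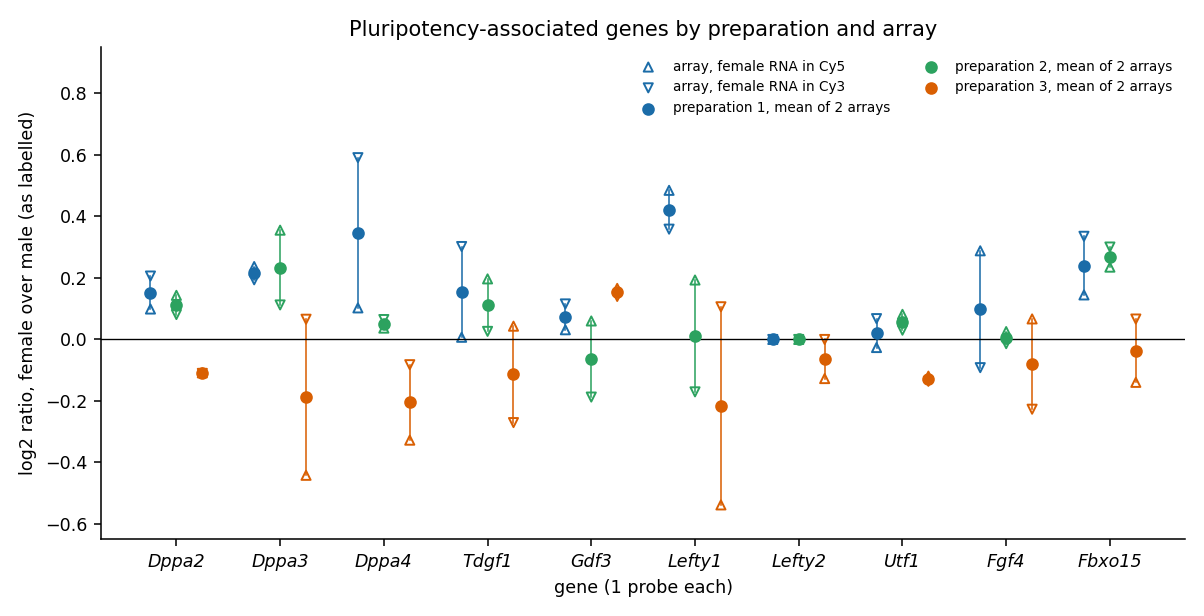
Log2 ratio of female over male RNA (y axis, as labelled) for the 10 genes (x axis), with preparation 1 in blue, 2 in green and 3 in orange; filled circles are the mean of the 2 arrays of a preparation, open upward triangles the array with female RNA in Cy5 and downward triangles the array with female RNA in Cy3. The orange circles lie below 0 for 9 of 10 genes, and Gdf3 at 0.15 is the exception.

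All 3 Dppa genes had the pattern of Xist in the preparation means. Dppa2 stood at 0.15 in preparation 1, 0.11 in preparation 2 and -0.11 in the preparation labelled 3. Its arrays read 0.099, 0.14 and -0.11 with female RNA in Cy5 and 0.21, 0.081 and -0.11 with female RNA in Cy3, in the order of preparations. So all 6 arrays followed Xist, as they did for 3.24% of named genes, and the 2 arrays of a preparation differed little: 97.1% of named genes had a larger mean gap between them.

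Dppa4 also followed Xist on all 6 arrays, but less evenly. It stood at 0.35, 0.051 and -0.20 in preparations 1, 2 and 3, with arrays at 0.10, 0.037 and -0.33 (female RNA in Cy5) and 0.59, 0.065 and -0.082 (female RNA in Cy3). Its value in preparation 1 rests mostly on 1 array. Dppa3 stood at 0.22, 0.23 and -0.19. Its arrays read 0.24, 0.36 and -0.44 with female RNA in Cy5 and 0.19, 0.11 and 0.066 with female RNA in Cy3. The array of the preparation labelled 3 with female RNA in Cy3 was positive and so did not follow Xist, while the other 5 did.

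With labels kept, the mean over 3 preparations was 0.052 ± 0.14 for Dppa2, 0.087 ± 0.24 for Dppa3 and 0.064 ± 0.28 for Dppa4 (SD, n = 3). Each SD was larger than the mean it belongs to. With the sign of the preparation labelled 3 turned, a setting chosen because of Xist and Eif2s3y, the same genes stood at 0.12 ± 0.024, 0.21 ± 0.023 and 0.20 ± 0.15. None passed the test there either (limma adjusted p = 0.669, 0.611 and 0.685). Xist and Eif2s3y did not pass it (limma adjusted p = 0.465 and 0.187), and the background of that setting was also 0% of rows. At an unadjusted p under 0.05 limma had 3 members in that setting, Dppa2, Dppa3 and Tdgf1, against 7.29% of rows, and 2 members without the preparation labelled 3, Dppa3 and Fbxo15, against 4.5%. The members were chosen with earlier results of these data known, so these counts are descriptions too and no independent support. A log2 ratio of 0.22, the mean of Dppa3 over preparations 1 and 2, is a 1.17-fold difference.

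Among the Nodal-pathway genes, the co-receptor gene Tdgf1 and the antagonist gene Lefty1 had the pattern of Xist, while Gdf3 and Lefty2 did not. Tdgf1 stood at 0.15, 0.11 and -0.11 in preparations 1, 2 and 3. Its arrays read 0.0071, 0.20 and 0.043 with female RNA in Cy5 and 0.30, 0.026 and -0.27 with female RNA in Cy3. The preparation means were close in size, with a mean of 0.13 ± 0.024 once the third was turned (limma adjusted p = 0.668), but the arrays within a preparation differed by up to 0.31.

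Lefty1 was the most variable of the 10. It stood at 0.42 in preparation 1, 0.011 in preparation 2 and -0.22 in the preparation labelled 3. Its arrays read 0.49, 0.19 and -0.54 with female RNA in Cy5, and 0.36, -0.17 and 0.11 with female RNA in Cy3. Only preparation 1 had the same sign on both arrays. With labels kept its mean was 0.072 ± 0.32 (limma 95% interval -0.36 to 0.51). With the preparation labelled 3 turned it was 0.22 ± 0.21 (limma adjusted p = 0.713), and without that preparation 0.22, so both its size and its SD depend on those labels.

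The other antagonist gene, Lefty2, gave almost no measurement. Its ratio is listed at exactly 0 on 5 of 6 arrays and at -0.13 on the array of the preparation labelled 3 with female RNA in Cy5. Exact zeros make up 2.11% of all values, and 97 of 21446 features (0.452%) are at 0 on 5 or more arrays. Signal intensities were not analysed here, so whether this probe registered its transcript is unknown and the 0 cannot be read as an equal level in both sexes.

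Gdf3 encodes a ligand of the TGF-beta family that can signal through the same co-receptor. It stood at 0.074 in preparation 1, -0.064 in preparation 2 and 0.15 in the preparation labelled 3. It was the member with the highest value in that preparation, and both of its arrays there were positive (0.17 and 0.14). Over the 3 preparations its mean was 0.054 ± 0.11 as labelled, and -0.048 ± 0.11 with the third turned, so its direction depends on those labels and the mean is smaller than its SD in both settings.

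Of the other Nodal and Activin pathway genes, 13 of 24 listed were measured, and Nodal itself was not analysed here. None passed limma's test with labels kept or with the preparation labelled 3 turned. None of the 13 had the pattern of Xist in the 3 preparations, 3 had its mirror, and 6 were positive in the mean of preparations 1 and 2. The values furthest from 0 in that mean were those of the activin receptor gene Acvr2a at 0.48, the T-box factor gene Eomes at 0.35, the shared signal transducer Smad4 at 0.26 and the activin subunit gene Inhba at -0.23. For Acvr2a that mean came from preparation 2 alone (-0.13, 1.09 and -0.25 in the 3 preparations), as it did for Eomes (-0.097, 0.80 and 0.10). In preparation 2, Acvr2a read 1.29 with female RNA in Cy5 and 0.90 with it in Cy3. Eomes read -0.051 and 1.66 there, so its value rests on 1 array. Smad4 was positive throughout, at 0.11, 0.41 and 0.080.

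Windows at the gene start, from RefSeq, are shown for Tdgf1, of the Nodal pathway, and for Utf1 and Fgf4, targets of Oct4 and Sox2. The window of Fbxo15, also such a target, was left out and not analysed here, and the remaining members had no window available. Each window shown runs from 250 bases before the start to 50 after it, on build GRCm38.p6, in the direction of the gene. Capitals mark every match, on either strand, to TGTNNATT, a FOXH1-type motif of the factor that carries Nodal signals to DNA, or to GGGCGG, the GC box bound by Sp1. The windows lie at chr9:110946109-110946408 (minus strand), chr7:139943606-139943905 (plus strand) and chr7:144861136-144861435 (plus strand).
Tdgf1: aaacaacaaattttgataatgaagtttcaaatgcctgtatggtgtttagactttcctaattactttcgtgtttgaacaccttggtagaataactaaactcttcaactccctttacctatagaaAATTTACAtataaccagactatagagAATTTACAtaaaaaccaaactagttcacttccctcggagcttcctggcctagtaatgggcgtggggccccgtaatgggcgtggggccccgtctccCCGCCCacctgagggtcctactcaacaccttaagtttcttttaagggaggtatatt
Utf1: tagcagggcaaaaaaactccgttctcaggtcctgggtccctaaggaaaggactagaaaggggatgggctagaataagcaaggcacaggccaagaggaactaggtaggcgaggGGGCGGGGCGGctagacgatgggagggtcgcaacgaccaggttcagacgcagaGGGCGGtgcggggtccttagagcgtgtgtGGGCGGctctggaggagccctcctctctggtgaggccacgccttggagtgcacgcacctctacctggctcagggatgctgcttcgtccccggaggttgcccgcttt
Fgf4: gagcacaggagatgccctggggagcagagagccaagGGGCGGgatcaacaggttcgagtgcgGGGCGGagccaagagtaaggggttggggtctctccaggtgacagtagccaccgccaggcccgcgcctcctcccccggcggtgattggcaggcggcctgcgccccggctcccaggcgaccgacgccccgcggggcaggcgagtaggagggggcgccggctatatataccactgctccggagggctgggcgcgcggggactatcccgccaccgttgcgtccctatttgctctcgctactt

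The Tdgf1 window held 2 matches to the FOXH1-type motif, at positions -127 and -101 on the strand opposite to the gene, and 1 GC box at -6, while Utf1 held 4 GC boxes, of which the first and second overlap, and Fgf4 held 2. Among all 32851 windows of this length, 12.2% held a FOXH1-type match and 35.7% a GC box. The octamer ATGCAAAT, the letters bound by Oct4 (1.74% of windows), the SOX-type ACAAAG (18.7%) and TATAAA (13.6%) were searched on both strands too, and had no match in the 3 windows, which says only that these letters are not there. The base composition differed, with 41.7% G and C in the Tdgf1 window, 62% in that of Utf1 and 69.7% in that of Fgf4, beside a median of 52.7% over all windows.

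Fbxo15, which encodes an F-box protein, had the highest mean of the 10 over preparations 1 and 2. It stood at 0.24 in preparation 1, 0.27 in preparation 2 and -0.037 in the preparation labelled 3. Its arrays read 0.14, 0.24 and -0.14 with female RNA in Cy5 and 0.34, 0.30 and 0.066 with female RNA in Cy3. All 4 arrays of the first and second preparations were thus positive, as they were for 6.14% of named genes and for 5 of the 10 members, but the arrays of the third lay on both sides of 0. With labels kept the mean was 0.16 ± 0.17 (limma unadjusted p = 0.156, adjusted p = 1), with a 95% interval of -0.099 to 0.41. Without the preparation labelled 3 the mean was 0.25, a 1.19-fold difference (limma unadjusted p = 0.033, adjusted p = 0.886).

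Utf1, a chromatin-associated coactivator, and Fgf4 lay nearer to 0. Utf1 stood at 0.021, 0.056 and -0.13 in preparations 1, 2 and 3. Its arrays read -0.026, 0.082 and -0.12 with female RNA in Cy5 and 0.068, 0.030 and -0.14 with female RNA in Cy3, so its 2 arrays were close within each preparation and 1 of 6 did not follow Xist. Fgf4 stood at 0.098, 0.0060 and -0.080. It read 0.29, 0.026 and 0.067 on the arrays with female RNA in Cy5, all positive, and -0.092, -0.014 and -0.23 on those with female RNA in Cy3, all negative. The sign of Fgf4 on single arrays followed the dye and not the sex, and its mean dye effect (Cy5 over Cy3) was 0.12 ± 0.089, beside a ratio of the sexes of 0.0081 ± 0.089 with labels kept, 0.061 ± 0.049 with the preparation labelled 3 turned and 0.052 without it. Such a switch on all 6 arrays was seen for 1 of the 10 members and for 22.9% of named genes. In the fit of 6 arrays limma called a dye effect for 0 members and 12.1% of rows. Arrays with female RNA in Cy3 taken alone gave 0 called members and 3.38% of rows called. Those with female RNA in Cy5 taken alone gave 0 members and 0% of rows. With a single dye orientation, sex and dye cannot be told apart, so these calls cannot be read as sex differences.

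Of the FGF receptors, adaptors and targets of the pathway, 14 of 22 listed were measured and none passed limma's test in either setting. The pattern of Xist was seen in 3 of the 14 and its mirror in 2. The receptor gene Fgfr3 stood at 0.20, 0.12 and 0.0053 in preparations 1, 2 and 3, and the ligand genes Fgf5 at -0.17, -0.37 and 0.16, Fgf8 at -0.13, -0.12 and -0.11, and Fgf10 at -0.33, -0.51 and -0.23. The signs of Fgf10 on single arrays followed the dye. It read -1.90, -1.87 and -1.82 with female RNA in Cy5 and 1.24, 0.85 and 1.36 with it in Cy3. The list's median in the mean of preparations 1 and 2 was -0.011, beside 0.13 for the 10 members.

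**Figure D2:**
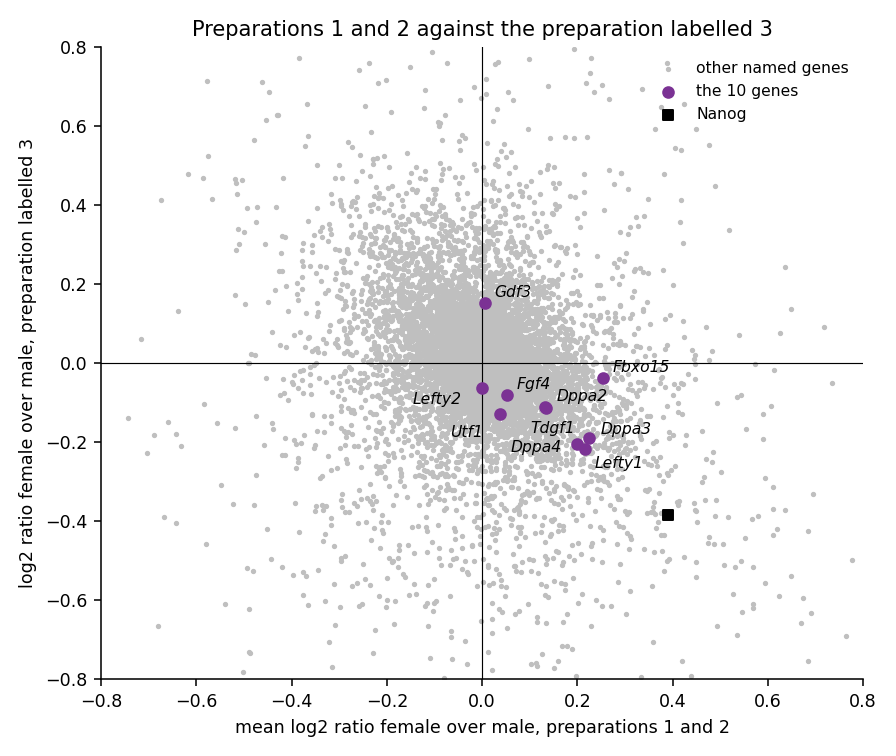
Each point is a named gene, with its mean log2 ratio of female over male in preparations 1 and 2 on the x axis and its ratio in the preparation labelled 3 on the y axis; the 10 genes are purple, Nanog is the black square, other named genes are grey, and 93 named genes lie outside the plotted range of 0.8 either way. Of the 10 genes, 8 sit to the right of 0 and below 0; Gdf3 lies above 0 on the y axis and Lefty2 at 0 on the x axis.

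Read together over preparations 1 and 2, the members ranged from 0 (Lefty2) to 0.25 (Fbxo15). Above 0.1, where 19% of named genes stood, were 6 members: Fbxo15, Dppa3, Lefty1, Dppa4, Tdgf1 and Dppa2. In that order the values were 0.25, 0.22, 0.22, 0.20, 0.13 and 0.13. Fgf4 at 0.052, Utf1 at 0.038, Gdf3 at 0.0050 and Lefty2 made up the rest. Of the 9 neighbouring pairs in this order, 7 overlapped in their values of preparations 1 and 2, and all 9 overlapped in the 4 arrays behind them. The pairs whose preparation values did not overlap were Fbxo15 above Dppa3 and Dppa2 above Fgf4, and no test was made of either. Between preparations 1 and 2 Lefty1 spanned 0.41 and Dppa4 0.30. Of 60 single-array values of the members, 43 had the sign of Xist on the same array, and 5 of the others are the exact zeros of Lefty2. The same share over all named genes was not computed, and both arrays of a preparation hold the same extracts. This count is therefore only a description.

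The core pluripotency factors, 13 of 15 measured, are the list most like the members. Of these, 9 had the pattern of Xist and 2 the mirror, with a median of 0.12 over preparations 1 and 2 and -0.059 in the preparation labelled 3. Nanog was furthest from 0, at 0.37, 0.41 and -0.38, followed by Tcl1 (0.34, 0.28 and -0.20), Klf4 (0.28, 0.27 and -0.21) and Sox2 (0.18, 0.29 and -0.37). None passed the test over the 3 preparation means. In the fit of all 6 arrays with a dye term and the preparation as block, with the preparation labelled 3 turned, where the estimated block correlation was -0.15, limma called Nanog (adjusted p = 0.0393) and 39 rows in all (0.21%), but 0 of the 10 members, whose lowest adjusted p was 0.342 (Dppa2). With a correlation below 0 the block does not discount the second array of a preparation, so these p-values count 6 arrays of 3 preparations as more than 3 replicates. An unadjusted p under 0.05 in that limma fit was reached by 4 members, Dppa2, Dppa3, Dppa4 and Fbxo15, against 9.04% of rows. This count too describes genes chosen with earlier results known. Of 14 measured of 20 other genes associated with pluripotency, 5 had the pattern of Xist and 3 the mirror, with Rex2 at 0.35, 0.18 and -0.13 and Pecam1, an adhesion protein gene, at -0.092, -0.26 and 0.079.

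**Figure D3:**
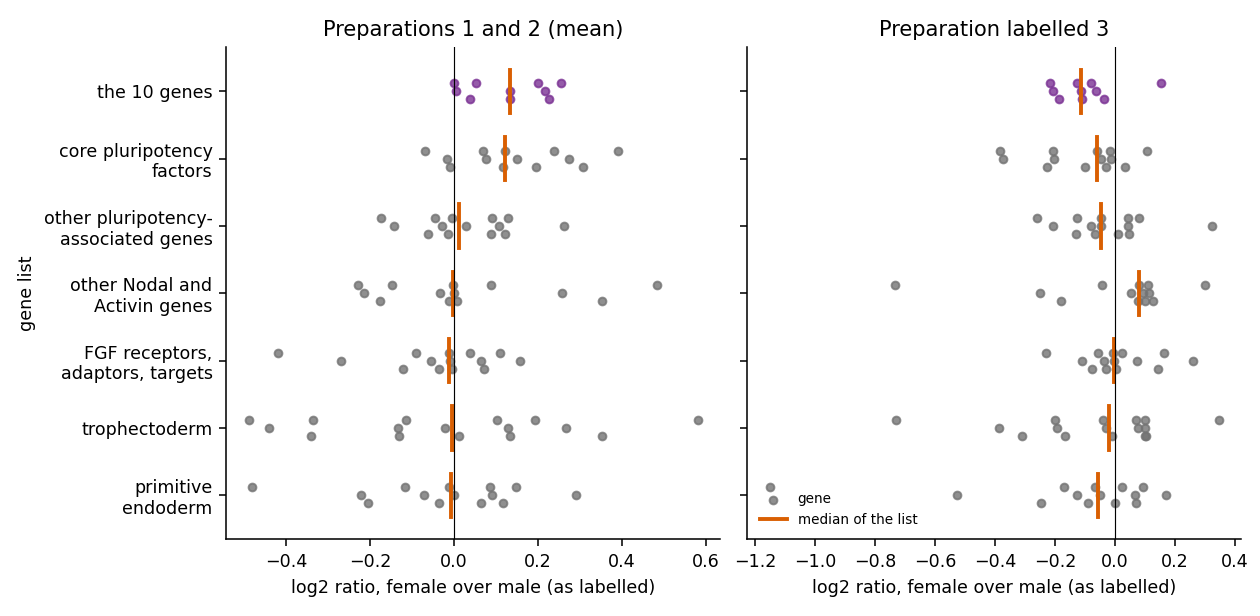
Log2 ratio of female over male (x axis) for the genes of 7 lists (rows), as the mean of preparations 1 and 2 on the left and in the preparation labelled 3 on the right; points are genes, the 10 genes are purple and orange bars are list medians. The medians of the 10 genes (0.13 on the left, -0.11 on the right) lie on opposite sides of 0, and those of trophectoderm are -0.0054 and -0.019.

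Markers of the other parts of the blastocyst were measured on the same arrays. Of trophectoderm genes, 4 of 16 measured had the pattern of Xist and 3 the mirror. Their values over preparations 1 and 2 ran from -0.49 (the transcription factor gene Tfap2a) to 0.58 (the lectin gene Lgals3), with a median of -0.0054. Of primitive endoderm genes, 3 of 14 had the pattern and 2 the mirror, with values from -0.48 (Ttr) to 0.29 (the laminin gene Lama1) and a median of -0.0062. Both medians were near that of all named genes, 0.0063. No gene of either list passed limma's test with labels kept or with the preparation labelled 3 turned. The signs of Lgals3 and Ttr on single arrays followed the dye. Lgals3 read 1.04, 1.83 and 0.072 with female RNA in Cy5 and -0.0042, -0.55 and -0.85 with it in Cy3. Ttr read -1.14, -1.29 and -1.51 with female RNA in Cy5 and 0.42, 0.079 and 0.46 with it in Cy3. The share of inner cells in the female and male pools was not tested. Cells carried along with embryos gave few measured genes: the 5 of cumulus and granulosa cells had a median of 0.035, the 2 of oviduct epithelium one of -0.061 and the 3 of blood cells one of -0.12. The pattern of Xist was seen in 2 of the 5 cumulus and granulosa genes, Ptgs2, a prostaglandin synthase gene (0.19, 0.31 and -0.41), and Foxl2, a forkhead factor gene (0.065, 0.058 and -0.13). The arrays behind these means differed in sign. In preparation 2, Ptgs2 read 1.14 with female RNA in Cy5 and -0.53 with it in Cy3, and Foxl2 read 0.21 and -0.090. Of the blood cell genes, Fcer1g, an Fc receptor subunit gene, had the pattern of Xist as well (0.066, 0.033 and -0.012), and Ptprc, a leukocyte surface gene, had the mirror (-0.25, -0.43 and 0.33). Their part in the members' values was not tested.

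Several members lie next to each other or to Nanog on the chromosome, and neighbours did not always share a pattern. On chromosome 6 the order of genes is Gdf3, Dppa3 and Nanog, with none between them. Dppa3 (0.22, 0.23 and -0.19) and Nanog had the signs of Xist in all 3 preparations, and Gdf3 (0.074, -0.064 and 0.15) did not. On chromosome 16 Dppa4 and Dppa2 are adjacent and both had the pattern, while the next gene, Morc1, stood at 0.10, -0.067 and -0.011. On chromosome 1 a single gene separates Lefty2 from Lefty1. Next to Fgf4, Fgf3 stood at 0.037, -0.058 and 0.26. Of 14 measured neighbours of the members that are not members themselves, 4 had the pattern of Xist, beside 19.3% of all named genes. They were Nanog, Timm21 next to Fbxo15 (0.052, 0.079 and -0.070), LTO1 near Fgf4 (0.15, 0.057 and -0.16) and Apobec1 next to Gdf3 (0.049, 0.035 and -0.0075).

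**Figure D4:**
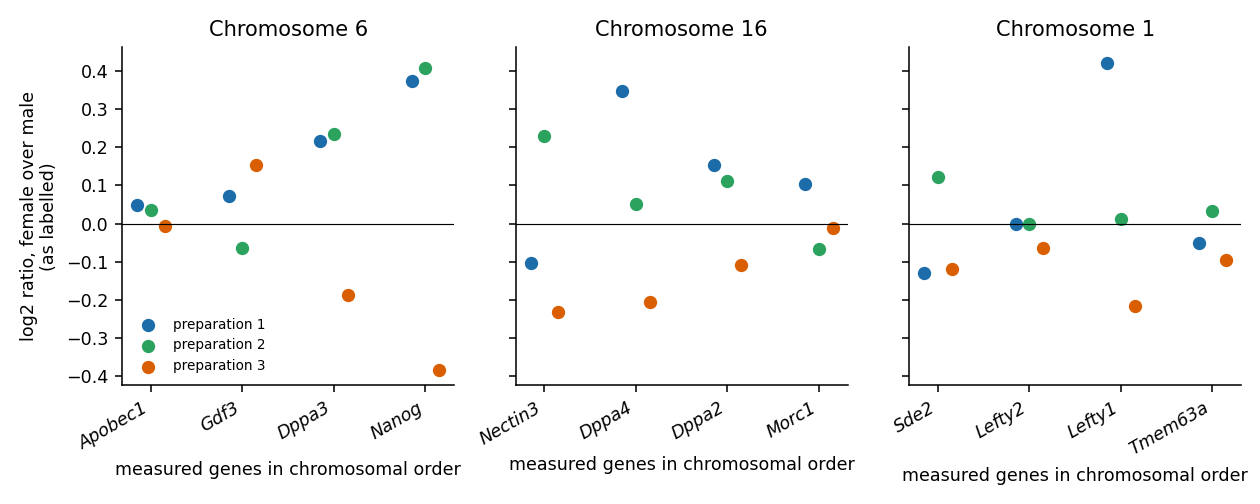
Log2 ratio of female over male (y axis, as labelled) in preparations 1 (blue), 2 (green) and 3 (orange) for measured genes in their chromosomal order (x axis, not to scale) at 3 loci. Dppa3 and Nanog, next to each other, are above 0 in blue and green and below it in orange, and Gdf3 at the same locus is at 0.15 in orange.

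The genes most like Fbxo15 over the 6 arrays, by the root mean square difference of their ratios, were Orc6, a subunit of the origin recognition complex (0.051), Nipbl, a loader of cohesin (0.061), and Ak4, a mitochondrial adenylate kinase (0.062). Orc6 stood at 0.20, 0.29 and -0.065 in the 3 preparations. Among the other members Dppa2 was nearest, at rank 100 of the named genes, and Lefty1 furthest, at rank 3553.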

How the data were processed

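Two-colour arrays of 3 preparations were scanned with Feature Extraction version 7.5 and combined with Luminator, per the labels and series design text. The deposited log ratios, made by the authors from those scans, were taken as log10 of Cy5 over Cy3, since values stop at exactly -2 and 2; base and direction are not given in the sources used here. Values were multiplied by 3.32 to give log2, and the sign was reversed where female RNA carried Cy3. Array medians lay between 0 and 0.00223 (log10), and no centring was applied. Intensities and flags were not analysed here, so signal over background is unknown and the number of arrays limits the precision.

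Symbols were updated by gene number from RefSeq (GRCm38.p6); of 11813 single-symbol probes, 11782 were found. Probes with several symbols (559) or not listed (9074) were tested unnamed. Probes of a gene were averaged. Both arrays of a preparation, made from the same extracts, were averaged, and the mean of 3 preparations was tested against 0 with limma 3.58.1 (R 4.3.3) and Benjamini-Hochberg adjustment over 18606 rows, at 0.05; the script was tested on simulated data. Same-numbered arrays are paired by those extracts; their deviations from group means correlated at -0.23, -0.10 and 0.061 in preparations 1, 2 and 3. Members and lists were chosen with earlier results of these data known. The rule for named genes took all members, the label-check genes, Nanog and Sox2, up to 4 genes per list with the largest mean of preparations 1 and 2 in size, measured neighbours, and the 3 genes most like the leading member. Alternatives left out each preparation, turned the preparation labelled 3, used 6 arrays with or without block, single dye orientations, centring, other probe summaries and a filter on limiting values.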

Additional observations from a re-analysis of the deposited data

Results flagged for a closer look

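Of 48 named genes, 10 had ratios that were all of one sign where female RNA carried Cy5 and all of the other sign where it carried Cy3, against 22.9% of all named genes. Among the members this was Fgf4, with a mean dye effect (Cy5 over Cy3, log2) of 0.12 (limma adjusted p = 0.225 in the fit of 6 arrays with block). The others were Inhba at -1.33, Fgf10 at -1.51, Lgals3 at 0.72, Ascl2 at 0.65, Ttr at -0.82, Lamc1 at -0.38, Inha at -0.095, Lyz2 at 0.36 and Kdm5d at -0.16. In that fit limma called the dye effect of Inhba (adjusted p = 0.00825), Fgf10 (adjusted p = 0.00498), Ttr (adjusted p = 0.00498) and Lamc1 (adjusted p = 0.0441), and in all 2250 rows (12.1%). Over the 3 preparation means it called 0 rows. No group holds 4 or more arrays, so single arrays were not screened as outliers.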

How the results depend on the processing

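With labels kept or turned, 0 members were called by limma under all 13 alternatives run. The count over all rows, 0 as labelled, was 39 in the 6 arrays with replicate block and dye term and the preparation labelled 3 turned. It was 628 where only arrays with female RNA in Cy3 were used, beside 0 where only those with it in Cy5 were. Under a single dye orientation sex and dye cannot be told apart, so the 628 rows cannot be read as sex differences. With labels kept, the 6 arrays gave 0 rows with the replicate block and 0 without it. No fit without the block was run with the preparation labelled 3 turned, so whether the block matters there was not tested. The 8 members with the sign pattern of Xist were 5 with only the arrays labelling female RNA in Cy5 and 4 with only those labelling it in Cy3, and 8 without each preparation, with centring and with the filter (settings added after the data were seen). The share of all named genes with the pattern under a single dye orientation was not computed. Means reversed in sign as follows. With the preparation labelled 3 turned, with or without the 6 arrays in block, Gdf3 was at -0.048, Lefty2 at 0.021 and Utf1 at 0.068. With 1 dye orientation, Dppa4 was at -0.063 (female RNA in Cy5) and Fgf4 at -0.11 (female RNA in Cy3). Leaving out each preparation in turn, the means ran from -0.077 to 0.20 for Dppa4, -0.00099 to 0.13 for Tdgf1, -0.10 to 0.22 for Lefty1, -0.053 to 0.038 for Utf1 and -0.037 to 0.052 for Fgf4; preparation 1 left out gave the lowest value for all of these but Utf1, whose lowest came without preparation 2. The filter on values at 0 removed Lefty2. The cause was not tested. The other values did not reverse (116 of the 129 member values under alternatives). Among them are values of 0 for Lefty2, which have no sign.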

Other observations

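The median gap between the 2 arrays of a preparation was 0.13 for the 10 members, the zeros of Lefty2 included, and 0.26 for all named genes, and the median size of their mean dye effect was 0.032 against 0.12. Utf1 (97.5% of named genes had a larger mean gap) and Dppa2 were the closest of the measured members, and Lefty1 the least close (38.8%). Once the preparation labelled 3 was turned, the median SD over preparations was 0.052 for the members and 0.092 for all named genes, beside 0.14 and 0.12 with labels kept. Whether probe brightness moves with these gaps was not tested.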
